A study of Mus musculus with 12 samples.

Results

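Selection of NIC/p66Low tumour cells in the mouse mammary gland was examined by comparing 3 aggressive with 3 parental tumours, which are 6 of the 12 tumours of the series, over all 19370 genes that passed a filter on low counts. NIC cells are ErbB2-positive mouse breast cancer cells without p66ShcA, the longest protein form made from the adaptor gene Shc1, and NIC/p66Low cells were left without it. Parental cells had not been selected. Aggressive cells had grown through 2 rounds in mouse fat pads and had then been returned to culture. The submitters describe the explanted cells as growing faster and metastasising more. Each tumour of both groups came from 250000 cells placed in the fourth mammary fat pad of a female FVB/N mouse aged 8 to 12 weeks. The design text speaks of 1 explanted population per line, so the 3 aggressive tumours share their selected cells. NIC/p66High cells, which overexpress p66ShcA all the time, were selected in the same way, and their 6 tumours serve here for the spread between tumours and for a comparison of the effects of selection.

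RNA came from whole tumours, which hold mouse stroma and immune cells beside the tumour cells. The transcription factor p53 is activated by DNA damage and other stress and switches on genes for cell cycle arrest, cell death and repair, and it also drives Mdm2, which degrades it. Interferons, above all interferon gamma from T and NK cells, raise class I antigen presentation and a family of GTPases, the guanylate-binding proteins (GBP) and immunity-related GTPases (IRG). Mouse mammary fat pads hold lymph nodes, whose stroma makes chemokines such as Ccl21a and whose follicles are rich in B cells.

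Promoter stretches show examples of the motifs searched for in the 2 gene families on which the results turn most, interferon-induced and p53 target genes. They are RefSeq sequences of GRCm38.p6, the mm10 build, shown 5′ to 3′ on the strand of the gene and ending at or before its start site. Capitals mark the interferon-stimulated response element, searched on both strands as GAAA, any 2 bases and GAAA (matches may overlap one another), in the first 3, and the p53-binding decamer in the other 3.
Gbp3, chr3:142559954-142560043, plus strand: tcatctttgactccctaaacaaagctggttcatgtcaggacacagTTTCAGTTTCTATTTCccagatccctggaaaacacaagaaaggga
Irgm1, chr11:48871421-48871510, minus strand: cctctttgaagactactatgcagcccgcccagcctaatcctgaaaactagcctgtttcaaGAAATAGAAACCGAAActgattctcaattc
B2m, chr2:122147508-122147597, plus strand: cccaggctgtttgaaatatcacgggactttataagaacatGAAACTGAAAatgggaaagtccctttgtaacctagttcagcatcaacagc
Cdkn1a, chr17:29090866-29090955, plus strand: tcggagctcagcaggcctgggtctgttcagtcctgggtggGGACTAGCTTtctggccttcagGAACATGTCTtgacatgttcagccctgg
Ccng1, chr11:40755422-40755511, minus strand: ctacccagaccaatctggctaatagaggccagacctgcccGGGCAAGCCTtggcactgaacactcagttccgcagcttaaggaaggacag
Bax, chr7:45467050-45467139, minus strand: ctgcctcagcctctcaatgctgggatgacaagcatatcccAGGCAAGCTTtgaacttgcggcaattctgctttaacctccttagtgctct

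Windows of 300 bases, 250 before and 50 after a start site, were searched for 27025 gene symbols. The interferon element lay in a window of 3.99% of all of them, in all 9 matched GBP and IRG genes, in 11 of 20 matched type I interferon response genes and in 4 of 16 matched class I genes. The p53 decamer lay in a window of 9.55% of all genes and of 9 of 21 matched p53 targets. The decamer was searched on both strands as RRRCWWGYYY, where R is A or G, W is A or T and Y is C or T. It lay in 8 of the 15 matched targets that were lower in aggressive tumours by the test below and in 1 of the 6 that did not pass. These sets are small, and the difference between them was not tested. A list of cell cycle genes had the p53 decamer in 3 of 24 and the interferon element in 1 of 24. A match is a description of these letters and not a site of binding.

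The parental tumours held 38.6, 25.8 and 38.7 M counts in total and the aggressive tumours 17.4, 61.2 and 71.8 M (M, mega-counts). Aggressive tumours 1 and 2 stood apart from the other 4 in genes of lymph nodes. The summed level of 10 lymph node stroma genes was 1.86, 0.812 and 1.04 CPM (counts per 1 M of the TMM-scaled library) in parental tumours and 169.7, 246 and 1.61 CPM in aggressive tumours. Summed B cell markers were 3.27, 4.10 and 2.81 CPM in parental tumours and 198, 282 and 6.24 CPM in aggressive tumours. Aggressive tumour 3 was thus near the parental tumours in both. Its immunoglobulin sum was higher, at 52.9 CPM against 10.8, 10.1 and 5.69 CPM in parental tumours. Results below are also given for tumour 3 alone against the 3 parental tumours. In that fit the spread is pooled over the other groups, and the lone tumour is assumed to vary like them. The tumours carried the epithelial markers of mammary carcinoma: Epcam was at 600.1 to 776 CPM in parental and 618 to 928 CPM in aggressive tumours, and Krt8 at 835 to 1006 CPM and 615 to 874 CPM. Shc1 was at 65.0, 59.0 and 69.4 CPM in parental and 61.0, 65.3 and 69.9 CPM in aggressive tumours, all below the lowest p66High tumour, which held 223 CPM. Neither Shc1 (log2 0.02, edgeR adjusted p = 0.979) nor the mouse gene Erbb2 (-0.15, adjusted p = 0.634) passed the test. Erbb2 was at 54.9, 89.6 and 57.6 CPM in parental and 50.6, 57.5 and 73.4 CPM in aggressive tumours, so that the groups overlapped.

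**Figure D1:**
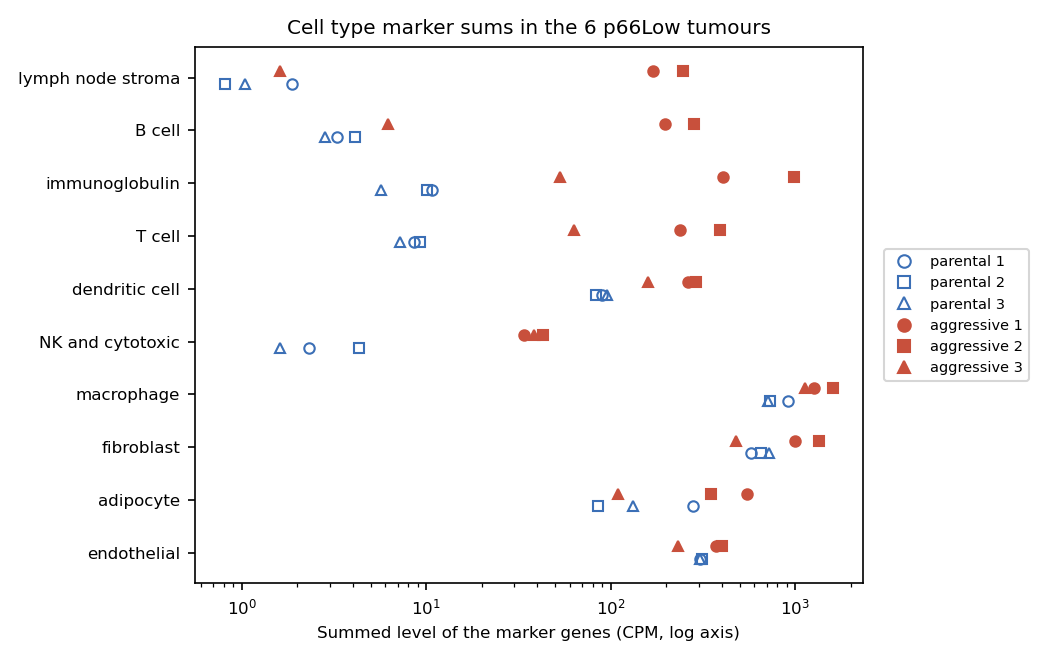
Summed CPM of marker genes (log axis) for 10 cell types in each of the 3 parental (open) and 3 aggressive (filled) p66Low tumours. Lymph node stroma and B cell sums of aggressive tumour 3 lie near the parental tumours, whereas its NK sum (38.2 CPM) lies between those of aggressive tumours 1 and 2. Its immunoglobulin sum (52.9 CPM) lies above the parental tumours.

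Lymph node genes were set apart by a rule that did not use their levels in the 6 tumours. Its gene lists were, however, chosen with earlier results of these data known. The genes left over are not those of tumour cells alone, since they include markers of NK cells and macrophages. A gene was called lymph node-linked if it belongs to a list of B cell, plasma cell, immunoglobulin or lymph node stroma genes, or if its level in p66High parental tumour 3, another library rich in such genes, was at least 1 log2 unit above both other p66High parental tumours. Of the 19370 genes tested, 427 were linked, 59 by list and 368 by level. Genes just inside the level threshold (46 genes at 1 to 1.1) had a median log2 change of 1.81, and those just outside it (54 genes at 0.9 to 1) had 1.36.

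A total of 3221 genes (16.6%) passed edgeR's quasi-likelihood test at an adjusted p of 0.05, 1860 higher (9.6%) and 1361 lower (7.03%) in aggressive tumours. Scaling by library size alone gave 2311 higher and 827 lower genes, which moved the share of higher calls from 57.7% to 73.6%. Among linked genes, 289 of 427 were higher (67.7%) and 3 lower (0.703%). Among the 18943 other genes, 1571 were higher (8.29%) and 1358 lower (7.17%), and of these 1003 and 428 changed at least 2-fold. The median change over all genes tested was -0.02. In tumour 3 alone 831 of 20443 genes passed (4.06%), 597 higher (2.92%) and 234 lower (1.14%).

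The linked genes moved far less in tumour 3. Those that passed higher had a median of 4.70 over the 3 aggressive tumours and 2.62 in tumour 3, where 23 of the 289 passed. The other genes that passed higher had a median of 1.32, and 1.04 in tumour 3, where 528 of 1571 passed in the same direction and 1561 had the same sign. The genes that passed lower and were not linked had a median of -0.69, and -0.70 in tumour 3, where 211 of 1358 passed and all 1358 had the same sign. The tumour 3 fit shares all its p66Low tumours with the fit that chose these genes. Like signs and similar medians are therefore partly fixed by the choice. Leaving out each of the 6 tumours in turn, 728 of the 1571 higher and 400 of the 1358 lower genes passed every time. The total of 3221 fell by more than 1.5 times without parental tumour 1 (2038), parental tumour 3 (1545) or aggressive tumour 2 (1547).

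The linked genes with the greatest changes included immunoglobulin chains and a lymph node chemokine. Ccl21a, which draws T cells into lymph nodes, had no count in the parental tumours and 8.13, 15.7 and 0.0571 CPM in the aggressive tumours, and was at least 255-fold higher (floor of 3 counts over the group). It was high in aggressive tumours 1 and 2 only, and tumour 3 held 4 counts. Ighg1, an antibody heavy chain gene, had 2 counts in the parental tumours together and 100.4, 173 and 0.385 CPM, a ratio of 4272 (95% counting interval 1182 to 35283, as for all intervals here counting error only). Ighg2c (at least 386-fold), Ighv8-5 (212), Iglc2 (180) and Ighg3 (165) had no parental count either, and nor had Igkv1-117 (at least 126-fold). Of these 7 genes only Ighg2c and Igkv1-117 passed in tumour 3 (adjusted p = 0.0275 and 0.0462), at 0.728 and 0.828 CPM. Ccl21a and Iglc2 did not pass without any 1 of the other tumours except aggressive tumour 3 (adjusted p up to 0.120), and Ighg1 did not pass without parental tumour 3 (0.0619). Ighv8-5 did not pass without parental tumour 1 or 3 (up to 0.0591), and Ighg3 not without any 1 parental tumour or aggressive tumour 2 (up to 0.0832, all edgeR adjusted p).

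Apart from lymph node genes, the greatest rises included Sox transcription factors and interferon-induced GTPases. Sox11, a factor of embryonic neural and epithelial progenitors, was at 0.243, 0.122 and 0.312 CPM in parental and 60.7, 17.9 and 49.3 CPM in aggressive tumours (log2 7.48, SE 0.56, edgeR adjusted p = 4.18e-05). Every aggressive tumour exceeded every parental tumour at least by an order of magnitude. Sox2, a pluripotency and progenitor factor, had 2 counts in the parental tumours together and 963 in the aggressive ones, at 2.61, 5.02 and 8.41 CPM, a ratio of 313 (counting interval 86.5 to 2592). Tumour 3 alone held a log2 change of 7.68 for Sox11, as high as with all 3. Of 15 tested Sox factors, Sox6 also rose (log2 1.09), although not in tumour 3 alone (adjusted p = 0.0629). Sox14 had 8 counts in the parental tumours and none in the aggressive, at least 4.10-fold lower, a call that was lost in 5 of the 6 fits without 1 tumour.

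Mup5, a major urinary protein gene of a family of near-identical copies, was at 0.729, 1.26 and 0.0520 CPM and then 11.8, 50.4 and 109.9 CPM (log2 6.50). Angptl1, a secreted angiopoietin-like protein, was at 0, 0.162 and 0.156 CPM and then 4.38, 3.38 and 7.52 CPM. Ly6i, a surface protein of the Ly6 family, was at most 0.108 CPM in parental tumours and at least 2.34 CPM in aggressive tumours. Irg1 (Acod1 in GENCODE), the enzyme that makes itaconate in activated macrophages, was at most 0.162 CPM and then at least 1.46 CPM. Another 7 of the highest were GTPases of the GBP and IRG families (Tgtp1, Tgtp2, Gbp4, Gbp6, Iigp1, F830016B08Rik and Gm4951), with log2 changes of 4.84 to 6.39. These 13 genes passed in every fit without 1 tumour and in tumour 3 alone, which the rule for naming them required.

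The rule for rises and falls alike also asked for groups that do not overlap and a mean of at least 2 CPM in the higher group, which leaves out genes such as Gabrr1 (-4.57). The 14 genes with the greatest falls by this rule included 2 p53 targets and an enzyme of the antioxidant response. Rbp7, a retinol-binding protein, was at 147, 69.9 and 177 CPM in parental and 7.19, 6.15 and 4.10 CPM in aggressive tumours (log2 -4.52, SE 0.38, adjusted p = 0.000101). Col10a1, a short-chain collagen, was at 17.9, 22.4 and 12.9 CPM and then 1.25, 1.01 and 1.07 CPM (-4.02). Nqo1, a quinone reductase and classical target of the factor NRF2, was at 16.6, 33.7 and 19.5 CPM and then 2.14, 2.14 and 2.48 CPM (-3.36). The parental tumours lay far above the aggressive ones in Rbp7, Col10a1 and Nqo1. Of 18 listed NRF2 targets, 2 were lower and 1 higher (median -0.21), against 7.03% and 9.6% of all genes. Of 14 antioxidant enzymes, 1 was lower and 1 higher (median -0.10). Dppa1 was at 2.59, 4.06 and 4.13 CPM and then 0.208, 0.0619 and 0 CPM, and in tumour 3 at least 82.8-fold lower. Clic3 (-5.69), Tmem35 (-5.58, Tmem35a in GENCODE), Scml2 (-4.34) and Scnn1b, a subunit of the epithelial sodium channel (-4.02), fell too. So did Dpysl5 (-3.39), the urate and hexose transporter gene Slc2a9 (-3.20), the DNA repair enzyme gene Mgmt (-3.08) and Zfp385b (-3.05).

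**Figure D2:**
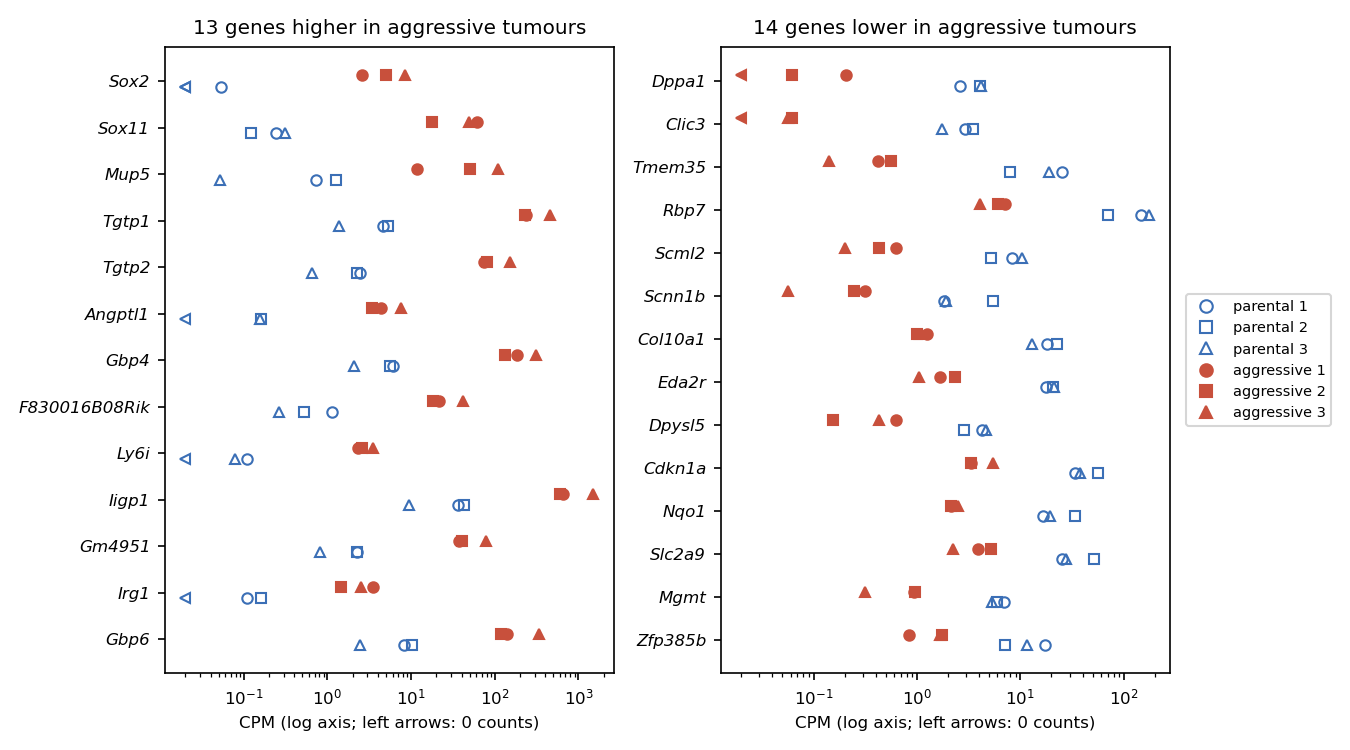
CPM (log axis) in each parental (open) and aggressive (filled) p66Low tumour of 13 genes with great rises (left) and the 14 genes with the greatest falls (right) among coding genes that were not lymph node-linked, had a mean of at least 2 CPM in the higher group and, by the choice of genes, groups that do not overlap. Left-pointing arrows mark tumours with 0 counts.

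Genes driven by p53 fell as a group. Of 28 listed p53 targets, all tested, 19 were lower and none higher, against 7.03% of all genes lower, with a median log2 change of -0.79 against -0.02 over all genes. The number lower was 17 to 19 when 1 tumour was left out, with 1 target passing higher without parental tumour 2 or aggressive tumour 3. In tumour 3 alone 11 were lower (median -0.63), where 1.14% of all genes passed lower. The summed level of the 28 genes was 1495, 1655 and 1514 CPM in parental and 823, 894 and 869.5 CPM in aggressive tumours, so the groups lay apart. Single targets did not overlap between groups in 20 of 28 cases, against 32.8% of all genes in either direction. The sums include targets that did not pass.

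Targets that arrest the cell cycle or feed back on p53 were lower in 6 of 7 cases. Cdkn1a, which encodes the cyclin-dependent kinase inhibitor p21, was at 34.1, 56.0 and 37.6 CPM in parental and 3.33, 3.33 and 5.41 CPM in aggressive tumours (log2 -3.38, SE 0.34, adjusted p = 0.000229). Psrc1, a spindle protein, was at 121, 104 and 133 CPM and then 21.8, 17.6 and 12.9 CPM (-2.78, SE 0.18, adjusted p = 2.31e-05). Ccng1, cyclin G1, was at 219, 215 and 224 CPM and then 88.6, 96.3 and 89.2 CPM (-1.27, SE 0.08, adjusted p = 2.22e-05). The spread within each group was small beside these differences. Mdm2, the ubiquitin ligase that degrades p53, was at 106, 118 and 111 CPM and then 73.1, 79.1 and 80.0 CPM (-0.53), and did not pass in tumour 3 alone (adjusted p = 0.0898). Gadd45a (-0.73) lost its call without parental tumour 2, aggressive tumour 1 or aggressive tumour 2. Btg2 did not pass (0.18).

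Targets that act in cell death were lower in 7 of 12 cases. Eda2r, a death receptor of the tumour necrosis factor family, was at 17.9, 20.8 and 21.2 CPM and then 1.67, 2.34 and 1.06 CPM (log2 -3.56, SE 0.26, adjusted p = 4.12e-05). Phlda3, an inhibitor of AKT signalling, was at 35.0, 46.0 and 39.7 CPM and then 8.55, 9.30 and 3.94 CPM (-2.48). Bax, a protein that permeabilises mitochondria, was at 42.1, 42.1 and 44.9 CPM and then 19.1, 19.9 and 18.1 CPM (-1.18). Aen, a nuclease of apoptotic cells, was at 45.2, 40.6 and 49.2 CPM and then 21.3, 23.4 and 16.5 CPM (-1.14). These 4 genes passed in tumour 3 alone too. Bbc3, which encodes the death protein PUMA (-0.84), lost its call without parental tumour 2 or 3 or aggressive tumour 2. Apaf1 (-0.15), Trp53inp1 (-0.59), Lrdd (0.21), Pmaip1 (0.80) and Fas (0.71) did not pass.

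Targets of metabolism and DNA repair were lower in 6 of 9 cases. Zmat3, an RNA-binding protein, was at 43.6, 64.4 and 48.4 CPM and then 12.5, 13.5 and 12.5 CPM (log2 -2.02, SE 0.18, adjusted p = 0.000110). Polk, a DNA polymerase that copies past lesions, was at 31.5, 38.8 and 31.7 CPM and then 16.1, 15.002 and 16.1 CPM (-1.11). The ribonucleotide reductase subunit Rrm2b (-0.49) did not pass without parental tumour 1 (adjusted p = 0.0509). Sesn1 (0.34), Xpc (0.00) and 9630033F20Rik (0.08) did not pass.

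Of the genes upstream of the targets, Trp53 itself was at 22.1, 22.3 and 26.0 CPM and then 20.2, 18.9 and 14.3 CPM, which did not pass (log2 -0.40, adjusted p = 0.276). Cdkn2a, a locus that encodes the Mdm2 inhibitor p19ARF and the kinase inhibitor p16, rose from 10.5, 17.2 and 14.4 CPM to 53.04, 58.5 and 78.3 CPM (2.18, SE 0.27, adjusted p = 0.000731), also in tumour 3 alone (2.48). Of 16 tested members of the p53 family and its regulators, 2 were higher and none lower, against 9.6% and 7.03% of all genes. They were Cdkn2a and the kinase gene Hipk2 (0.56). The call of Hipk2 was lost without any 1 of the tumours. The kinases Atm (0.02), Atr (-0.09), Chek1 (-0.15) and Chek2 (-0.07) and the inhibitor Mdm4 (-0.03) did not pass. Counts per gene do not show mutations or protein.

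**Figure D3:**
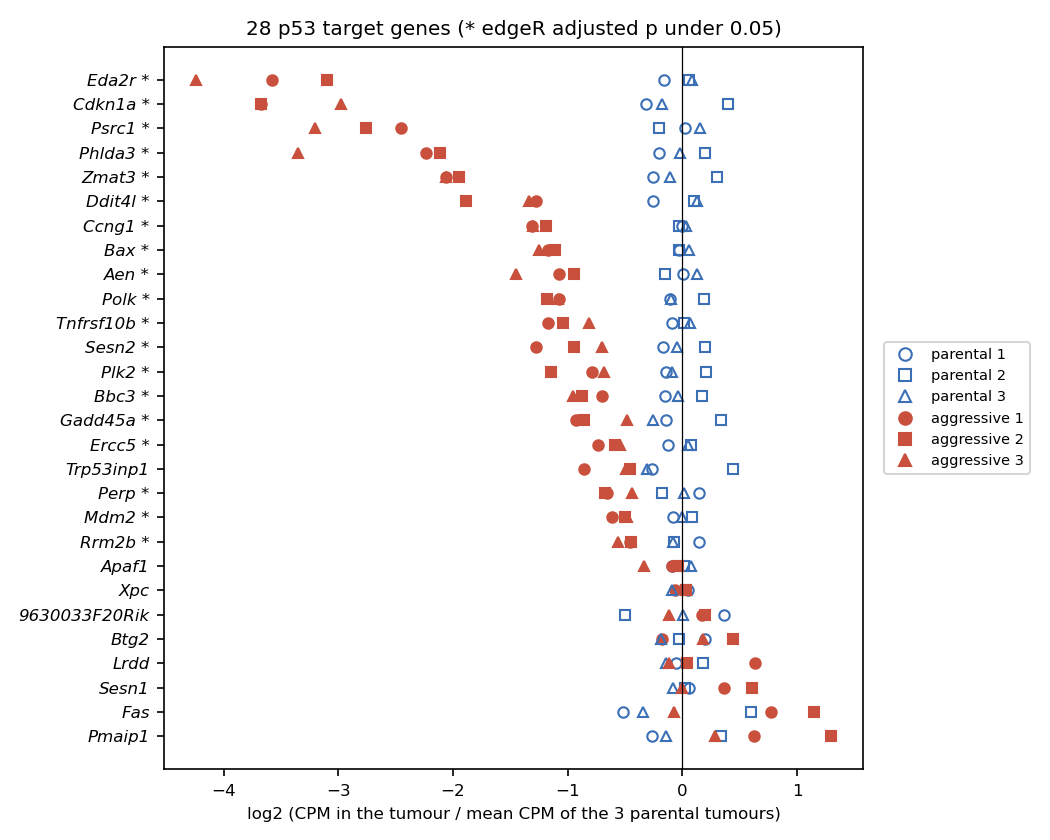
The 28 p53 target genes in each p66Low tumour, as log2 of its CPM over the mean of the 3 parental tumours (open symbols parental, filled symbols aggressive; asterisks mark genes past the test). The 19 marked genes lie below the parental mean in all 3 aggressive tumours, tumour 3 included.

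Antigen presentation and interferon-induced genes rose in all 3 aggressive tumours. All 19 class I presentation genes were higher, with a median log2 change of 2.66, in every fit without 1 tumour and in tumour 3 alone, against 9.6% and 2.92% of all genes. Their summed level was 1343, 1442 and 973 CPM in parental and 4871, 8575 and 11371 CPM in aggressive tumours. Tumour 3, with low lymph node stroma and B cell sums, thus held the highest level. B2m, the light chain of class I molecules, was at 151, 122 and 99.8 CPM and then 760.3, 1526 and 2181 CPM (3.58, SE 0.47, adjusted p = 0.000949). H2-M3, a heavy chain that presents formylated peptides, was at 2.73, 2.96 and 2.60 CPM and then 17.8, 32.1 and 24.1 CPM (3.16). Tap2, a part of the peptide transporter, was at 46.4, 53.4 and 34.4 CPM and then 124, 179 and 213 CPM (1.95). The 8 heavy and light chain genes had a median of 3.15, and the 10 genes that supply peptides 1.70. Heavy chain genes of this locus share sequence, so reads may be split between them.

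All 16 listed GBP and IRG genes were higher, with a median log2 change of 4.55, in every fit without 1 tumour and in tumour 3 alone, where the median was 5.11. Their summed level was 229.5, 254 and 104 CPM in parental and 2298, 2332 and 4785 CPM in aggressive tumours. Irgm1, a regulator of the family that acts on phagosomes and autophagy, was at 40.7, 40.9 and 23.3 CPM and then 245, 289 and 585 CPM (3.42, SE 0.51, adjusted p = 0.00192). Gbp4 was at 6.08, 5.64 and 2.05 CPM and then 184, 133 and 308 CPM (5.52). Iigp1, which attacks vacuoles of parasites, was at 36.5, 43.4 and 9.33 CPM and then 661, 607 and 1510.0 CPM (4.97). Parental tumour 3 was the lowest and aggressive tumour 3 the highest in each. The genes named Gbp5 and Gbp6 in the deposited table carry identifiers that GENCODE names Gbp2b and Gm43302, and members of the family are near-copies of each other, so single members are uncertain.

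Regulators of the interferon response rose too. Irf1, a transcription factor induced by interferon gamma, was at 40.7, 53.4 and 37.7 CPM and then 136, 153 and 183 CPM (log2 1.84, SE 0.22, adjusted p = 0.000524). Ciita, the master activator of class II genes, was at 8.83, 7.22 and 7.07 CPM and then 64.1, 74.2 and 67.0 CPM (3.15). Both passed in tumour 3 alone. Ifng, the interferon gamma gene, was at 0.0540, 0.0812 and 0 CPM and then 0.625, 0.511 and 1.13 CPM (adjusted p = 0.0198), and did not pass without parental tumour 1 or 3 or in tumour 3 alone (adjusted p = 0.0735). The genes Ifnb1, Ifna2, Ifna4 and Ifnk were at most 0.244 CPM in any of the 6 tumours and were not tested. In all, 13 of 22 tested interferon signalling genes were higher and none lower (median 0.78), 7 in tumour 3 alone and 8 to 14 when 1 tumour was left out, with 8 without parental tumour 1 or parental tumour 3. Type I interferon response genes were higher in 23 of 28 cases (median 2.09), 16 in tumour 3 alone. Without 1 tumour that count was 13 (parental 1), 9 (parental 3), 12 (aggressive 2) and 12 (aggressive 3), and 20 to 23 without the others. Trim30a, one of them, was at 9.13, 12.1 and 8.24 CPM and then 41.0, 73.6 and 67.2 CPM (2.63). Class II genes were higher in 12 of 12 cases (median 2.92), but in tumour 3 alone in 4, and in 6 without parental tumour 3.

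Inflammatory and checkpoint genes rose more unevenly. Of 21 NF-kB factors and targets, 14 were higher (median log2 1.35), 5 in tumour 3 alone and 10 to 14 without 1 tumour. Birc3, an inhibitor of apoptosis and NF-kB target, was at 14.5, 16.8 and 14.3 CPM and then 35.7, 49.9 and 30.8 CPM (1.35). Cxcl5, a neutrophil chemokine, rose by 2.94 on the log2 scale, to 1.33 to 2.66 CPM. Of 20 checkpoint genes, 15 were higher (median 1.81), 4 in tumour 3 alone, and 7 or 8 without parental tumour 1, parental tumour 3 or aggressive tumour 2. Cd274, which encodes PD-L1, was at 1.94, 2.72 and 0.754 CPM and then 18.0, 15.1 and 18.0 CPM (3.25, adjusted p = 0.00151), and passed in tumour 3 alone. Complement genes were higher in 8 of 12 cases and in none in tumour 3 alone (5 without parental tumour 3 or aggressive tumour 2). Chemokines and their receptors were higher in 14 of 25 cases, 8 of the 25 lymph node-linked, with 7 higher in tumour 3 alone.

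Immune cell markers separated into those that followed the lymph node genes and those that did not. NK and cytotoxic markers summed to 2.32, 4.30 and 1.61 CPM in parental and 34.0, 43.0 and 38.2 CPM in aggressive tumours, with tumour 3 between the others. Of 13 tested, 12 were higher (median log2 3.94), 6 in tumour 3 alone and 7 or 8 without parental tumour 1, parental tumour 3 or aggressive tumour 2. Ncr1, an activating receptor of NK cells, was at 0.108, 0.0812 and 0.130 CPM and then 3.44, 2.66 and 2.44 CPM (4.66, SE 0.67, adjusted p = 0.00152). Gzma, a granzyme, was at 0.270, 0.162 and 0.208 CPM and then 2.08, 1.95 and 2.20 CPM (3.24). Both passed in tumour 3 alone.

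T cell markers summed to 8.61, 9.29 and 7.20 CPM in parental and 236, 392 and 63.4 CPM in aggressive tumours, so that tumour 3 lay above the parental tumours and well below the other 2. Of 20 tested, 19 were higher and the same number were lymph node-linked, and none passed in tumour 3 alone, while limma-voom called 6 of the 20. Cd8a, the co-receptor of cytotoxic T cells, was at 0.162, 0.812 and 0.286 CPM and then 15.2, 24.9 and 9.02 CPM (adjusted p = 0.00443, and 0.0526 in tumour 3 alone). Icos, a T cell co-stimulator, had adjusted p = 0.00389 and 0.0523 in the same fits. T cell calls fell to 9 without parental tumour 3. B cell markers were higher in 13 of 14 cases and none in tumour 3 alone, with 1 to 7 passing without any 1 of the other tumours and 14 without aggressive tumour 3, while limma-voom called none of the 14. Lymph node stroma genes were higher in 4 of 9, with 0 to 8 when a tumour was left out, the 8 without aggressive tumour 3. Of 248 immunoglobulin genes, 198 had no count in any parental tumour, and 32 were tested. Of these 32, 27 were higher (median log2 7.27, and 3.62 in tumour 3 alone), and 11 to 15 without parental tumour 1, parental tumour 3 or aggressive tumour 2. The filter on low counts can keep genes counted in 1 group alone, so rises among the 32 were partly fixed by it. Immunoglobulin calls also fell to 4 with limma-voom, to 6 with a filter of 1 CPM in 3 tumours and to 17 in the fit of the 6 p66Low tumours. Macrophage markers were higher in 10 of 19 and dendritic cell markers in 9 of 14, and in 2 each in tumour 3 alone, the integrin genes Itgae (2.46) and Itgax (1.58) and C1qc (0.97) and C1qb (0.93), complement genes that the macrophage list holds and the complement list does not. Macrophage calls fell to 4 and dendritic cell calls to 5 without parental tumour 3 or aggressive tumour 2, and macrophage calls to 5 and 6 without parental tumour 1 and 2. In bulk tissue, more cells of a type and more RNA per cell cannot be told apart. With the lymph node level as a covariate, 12 T cell, 7 NK and cytotoxic, 7 class II, 1 complement and 1 B cell gene were called higher. With all 3 lymph node-rich libraries left out, 9 T cell, 5 NK and cytotoxic and 5 class II genes were called higher, and no complement or B cell gene.

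Most markers of other stroma did not pass. Over all genes, 9.6% were higher and 7.03% lower. Fibroblast markers summed to 578, 656 and 724 CPM in parental and 991, 1338 and 474 CPM in aggressive tumours, with 1 of 16 higher. Adipocyte markers summed to 278, 85.1 and 132 CPM and then 546, 349 and 109.8 CPM, with none of 15 past the test. In both lists aggressive tumours 1 and 2 were above and tumour 3 within or below the parental range. No endothelial marker of 17 passed, and of 10 pericyte and smooth muscle markers 1 was higher and 2 were lower.

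**Figure D4:**
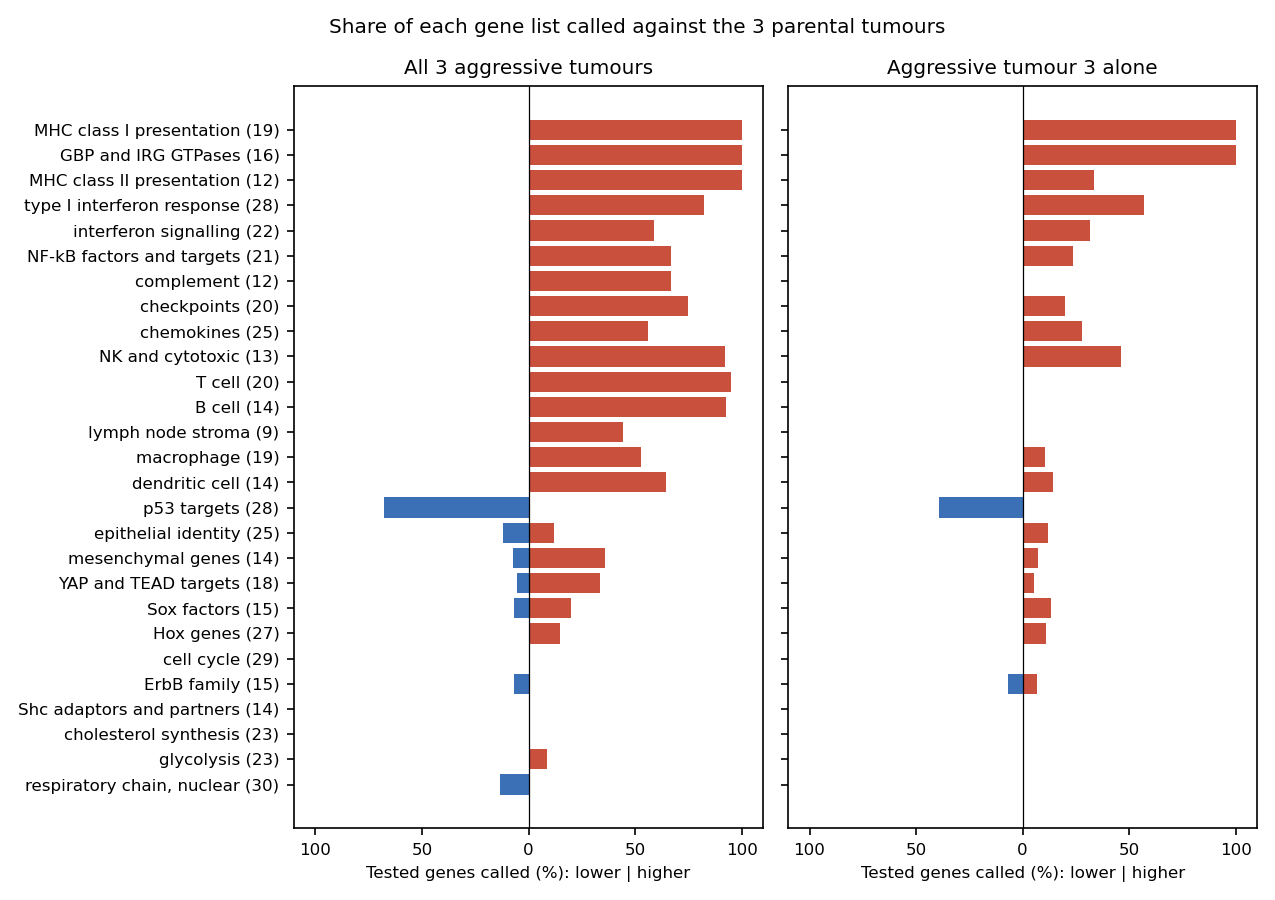
Share of the tested genes of each list (number in brackets) called higher (right) or lower (left) against the 3 parental tumours, for all 3 aggressive tumours and for aggressive tumour 3 alone. Class I and GBP and IRG lists are called whole in both, p53 targets are called lower in both, and T cell, B cell and complement lists lose every call in tumour 3 alone.

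In lists of proliferation and the ErbB pathway, no larger share passed than among all genes (16.6%, with 9.6% higher and 7.03% lower). None of 29 cell cycle genes did (median log2 -0.13, and -0.48 in tumour 3 alone). Their sums varied widely, at 2639, 1455 and 2747 CPM in parental and 2635, 1981 and 1649 CPM in aggressive tumours. None of 14 Shc adaptors and partners or 23 cholesterol synthesis genes passed either. Of 15 ErbB family genes, 1 passed: Lrig1, an inhibitor that promotes receptor degradation, fell from 132, 106 and 94.5 CPM to 46.2, 65.9 and 61.4 CPM (-0.94). Among 19 ERK output genes, 2 were higher and 1 lower, near the shares of all genes, and all of these were feedback inhibitors. Dusp4, an ERK phosphatase, fell from 63.0, 45.3 and 46.7 CPM to 11.7, 18.7 and 17.3 CPM (-1.69, SE 0.18, adjusted p = 0.000293). Dusp6, another ERK phosphatase, rose from 164, 156 and 142 CPM to 260.4, 280.4 and 489 CPM (1.16), and Spry1, a receptor feedback inhibitor, rose by 1.14. None of the other 16 passed.

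Genes of epithelial and mesenchymal identity changed singly. Of 25 epithelial genes, 3 were higher and 3 lower, against 9.6% and 7.03% of all genes, and no keratin of 7 passed. Cldn4, a tight junction protein, rose from 20.5, 28.8 and 12.5 CPM to 63.5, 98.4 and 111 CPM (2.15, SE 0.29, adjusted p = 0.00100). Elf3, an epithelial transcription factor, rose by 1.29. Of 14 mesenchymal genes, 5 were higher and 1 lower, but the higher calls numbered 2 or 3 without any 1 tumour other than aggressive tumour 3, and 1 in tumour 3 alone, Tgfbi. This matrix protein was at 21.9, 23.01 and 22.9 CPM and then 79.1, 89.4 and 70.6 CPM (1.82). Zeb2, a repressor of epithelial genes (1.17), did not pass in tumour 3 (adjusted p = 0.349). Pigr, the receptor that carries antibodies across epithelia, rose from 24.0, 27.8 and 8.53 CPM to 238, 429 and 637 CPM (4.44, SE 0.53, adjusted p = 0.000572), most in tumour 3. Ankrd1, a target of YAP and TEAD, rose from 0.918, 0.812 and 0.806 CPM to 2.55, 5.40 and 6.47 CPM (2.51), and 6 of 18 targets of these factors were higher (2 or 3 without parental tumour 1, parental tumour 3 or aggressive tumour 2, 1 in tumour 3 alone and 2 with the lymph node level as a covariate). Of 26 collagens, Col7a1 of anchoring fibrils rose (1.55), whereas Col10a1 and Col27a1 (-0.73) fell. Of 27 tested Hox genes, 4 passed, all higher, against 9.6% of all genes higher. Among them were Hoxa5 (1.74), Hoxa6 (1.30) and Hoxa10 (1.21). Without aggressive tumour 3, 8 Hox genes passed.

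Some genes of metabolism and milk production fell. Over all genes, 9.6% were higher and 7.03% lower. Of 18 ATF4 and serine genes, 3 were lower and 1 higher. Lower genes numbered 3 of 14 in fatty acid synthesis, 3 of 12 in iron handling and 2 of 10 among milk genes, with none higher. Milk gene sums overlapped, at 3523 to 4632 CPM in parental and 2748 to 4364 CPM in aggressive tumours. Slc7a5, the large amino acid transporter, was at 109, 83.4 and 99.2 CPM and then 35.0, 26.3 and 19.6 CPM (-1.86, SE 0.22, adjusted p = 0.000476). Srebf1, the regulator of fatty acid synthesis, was at 752, 1005 and 872 CPM and then 334, 334 and 357 CPM (-1.36). Both passed in tumour 3 alone. Trf, transferrin, among the highest counts of these tumours, was at 16622, 10577 and 12968 CPM and then 4101, 4341 and 7207 CPM (-1.36), and Slc40a1, the iron exporter, fell by 1.42 on the log2 scale. The milk genes Lalba (-1.26) and Xdh (-0.82) fell. Trf, Slc40a1, Lalba and Xdh did not pass in tumour 3 alone (adjusted p = 0.152, 0.0655, 0.0686 and 0.254). Of 23 glycolysis genes 2 were higher, Pfkfb4 (1.24) and the glucose transporter Slc2a3 (1.97, not without parental tumour 3 or aggressive tumour 2), neither in tumour 3 alone (adjusted p = 0.0943 and 0.474). Nuclear-encoded respiratory chain genes were lower in 4 of 30 cases, in none in tumour 3 alone, and in 0 with scaling by library size (1 without any 1 of 4 tumours, 2 without aggressive tumour 3, 7 without parental tumour 2).

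Chromosome 15 stood apart from the other chromosomes. Of its 508 expressed coding genes that were not lymph node-linked, 139 were lower and 31 higher (33.5% called), against 16.9% called among 12342 such genes elsewhere. The median log2 change was -0.31, and those of the other chromosomes ranged from -0.12 to 0.08. Relative to the parental mean, the median of chromosome 15 was 0.13, -0.16 and 0.04 in parental and -0.33, -0.27 and -0.28 in aggressive tumours. All 3 aggressive tumours lay below all 3 parental tumours, of which tumour 2 was the lowest. The median was -0.22 to -0.34 when 1 tumour was left out. Lower calls fell to 61, 59, 68 and 65 without parental tumour 1, parental tumour 3, aggressive tumour 1 or aggressive tumour 2. In tumour 3 alone the median was -0.30 with 19 genes lower (3.74%, against 1.35% elsewhere).

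The fall ran along most of the chromosome. In all, 9 of its 10 windows of 10 Mb with enough genes had medians of -0.17 to -0.38, and that of 60 to 70 Mb had -0.02. Gpt, an alanine aminotransferase (mm10 chromosome 15, 76695716 to 76699686), was at 27.2, 27.5 and 19.1 CPM and then 7.24, 6.21 and 6.74 CPM (-1.87, SE 0.18, adjusted p = 0.000154). Cbx6, a Polycomb protein that overlaps Npcd, was at 121, 115 and 143 CPM and then 56.6, 51.1 and 37.1 CPM (-1.39). Rpl3, a ribosomal protein gene, was at 104, 107 and 129 CPM and then 57.6, 62.7 and 57.0 CPM (-0.93). Pmm1, a phosphomannomutase (-1.16), Prr5 (-1.38), Fam173b (-0.61) and Lrp12 (-1.18) were lower too. In the window at 60 to 70 Mb, Asap1, which activates ARF GTPases, was higher (0.98). Lalba and Rrm2b, described above, also lie on this chromosome. RNA counts do not show the number of DNA copies.

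**Figure D5:**
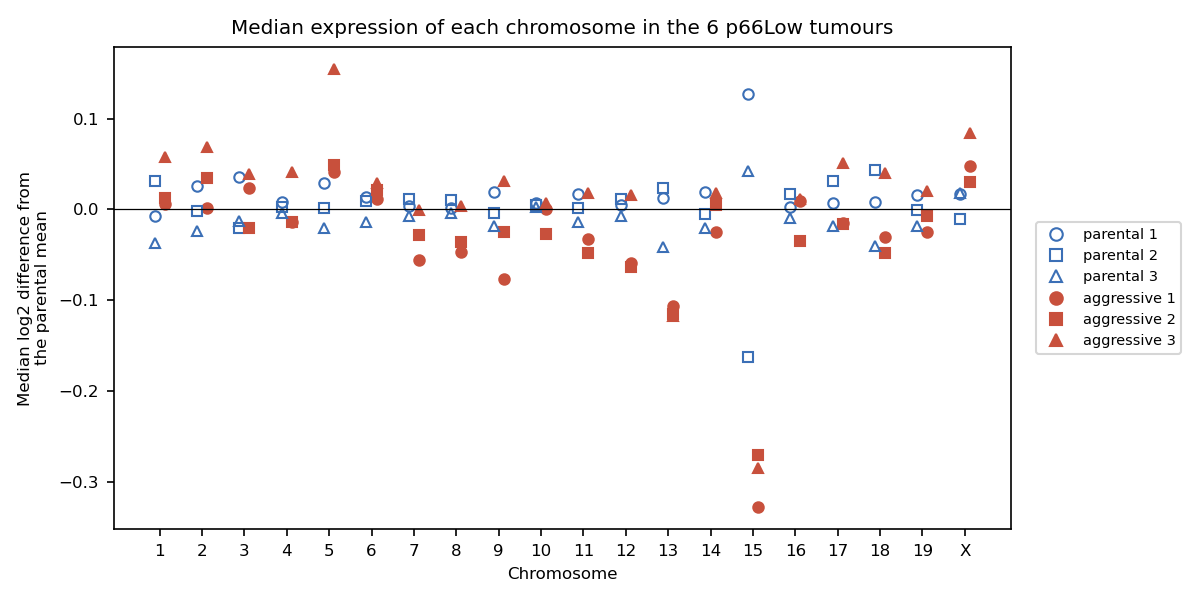
Median over expressed coding genes of each chromosome of the log2 difference from the parental mean, in each p66Low tumour (open parental, filled aggressive). Chromosome 15 is the lowest in the aggressive tumours, at -0.33, -0.27 and -0.28, and also has the widest spread among parental tumours.

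Selection of the p66High line gave a comparison that shares no tumours with this one, and the difference between both effects was tested as an interaction. It passed for 2395 genes (12.4%), 1548 with a more positive (7.99%) and 847 with a more negative change in p66Low selection (4.37%). Selection of p66High tumours alone passed for 1150 genes (5.94%), 603 higher (3.11%) and 547 lower (2.82%). Of the 2929 genes that passed in p66Low selection and were not linked, 1346 also passed the interaction. The interaction count fell to 335 without the 3 lymph node-rich libraries and to 1179 and 1182 without parental tumour 3 and aggressive tumour 2.

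By family, p53 targets had 15 of 28 genes past the interaction in the negative direction. Their sum in p66High tumours was 1490.3, 1494 and 1426 CPM before and 1439, 1345 and 1430.0 CPM after selection, with overlapping groups. All 19 class I genes passed the interaction in the positive direction. The class I sum in p66High tumours was 1334, 1669 and 2290 CPM before and 1966, 1596 and 694 CPM after selection. Of the GBP and IRG genes 13 of 16 passed. Their sum was 277, 323 and 326 CPM before and 611, 639 and 65.8 CPM after selection of p66High cells, with p66High aggressive tumour 3 far below the other 2. The chromosome 15 genes had an interaction median of -0.46, with 109 genes past it lower and 29 higher, and a median of 0.12 in p66High selection.

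Some single genes moved the opposite way in the selection of each line. Sftpd, a surfactant collectin, rose from 0.540, 0.244 and 0.104 CPM to 3.33, 3.72 and 4.27 CPM in p66Low tumours and fell from 3.20, 5.38 and 2.77 CPM to 0.152, 0.236 and 0.259 CPM in p66High tumours (interaction log2 7.80, adjusted p = 0.000464). Vmn2r96 also rose in p66Low and fell in p66High selection (7.02). Dpysl5 and Col10a1 had negative interactions (-5.97 and -5.10); Dpysl5 rose in p66High selection from at most 0.564 CPM to at least 1.90 CPM. Gabrr1 (-6.59) fell in p66Low tumours (log2 -4.57), and its change in p66High tumours did not pass (2.02). Hoxa10 rose in both lines, to 1.55 to 2.78 CPM in p66Low and 29.3 to 30.5 CPM in p66High aggressive tumours (interaction -3.57). Others changed alike. Nqo1 fell by 3.36 in p66Low and 3.59 in p66High selection (interaction 0.23, adjusted p = 0.762), and Cdkn2a rose by 2.18 and 1.73 (0.45, adjusted p = 0.446). Dcaf12l2, Gipr and Sox14, also among the 10 greatest interactions, were at most 8.11 CPM in any tumour. Dcaf12l2 and Gipr did not pass in p66Low selection, and p66High aggressive tumours had no count of Dcaf12l2.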

How the data were processed

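Whole-tumour RNA was sequenced in strand-marking libraries after removal of ribosomal RNA, per the labels' protocols. The authors deposited raw read counts per gene, made with Trimmomatic 0.32, STAR 2.3.0e, featureCounts 1.4.4 and mm10, per the submitters' processing notes. For the annotation, the strand setting and multi-mapped reads the choice is not given in the sources used here, so near-identical and overlapping genes are uncertain. Of 39017 identifiers, 37693 (96.6%) matched GENCODE M21, which gave coordinates; gene names and lists follow the deposited symbols.

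All 12 tumours (4 groups of 3) were fitted with edgeR 4.0.16 (R 4.3.3; quasi-likelihood test, filterByExpr, TMM, 8 residual degrees of freedom, Benjamini-Hochberg adjustment over all genes, threshold 0.05). SE is the log2 change divided by the root of F. Alternatives used DESeq2 1.42.0, limma 3.58.1, other scalings, filters and sets of tumours. Whether each tumour had its own mouse is not in the labels. In the titles, replicates 1 and 2 of each p66High group share a number and differ in the ending L or R, and the fit counts them as separate tumours in the pooled spread. The p-values then cover only the spread among these tumours, which may be technical. Intervals (95%) and floors (3 counts) cover counting error only. The fit was tested on simulated data.

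The comparison and the gene lists were chosen with earlier results of these data known. By rule, the text names the 14 highest and 14 lowest coding genes that were not lymph node-linked and passed in every fit without 1 tumour and in tumour 3 alone, with a mean of at least 2 CPM in the higher group and groups that do not overlap, 8 linked genes, 5 interaction genes in each direction, up to 4 genes with the smallest p per list and 3 per chromosome 15 window. Further p53 targets and regulators, Ifng, Gbp3 and the genes given as not passing were named after their values were seen. Some genes that the rule names are not reported here.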

Additional observations from a re-analysis of the deposited data

Results flagged for a closer look

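Of the genes looked at singly, 77 passed the edgeR test of the difference between both selections (adjusted p under 0.05), and 39 of these did so with unchanged sign once the 3 lymph node-rich libraries were left out. Values in brackets are the log2 change in p66Low selection minus that in p66High selection. Each group held 3 tumours, too few for a check of single outlying samples. With the lymph node level as a covariate, 480 of all genes passed the test of the difference, in place of 2395.

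Among p53 targets the difference was negative for Cdkn1a (-3.88), Psrc1 (-2.89), Eda2r (-2.77), Phlda3 (-2.45), Zmat3 (-1.87), Bax (-1.15), Polk (-1.10), Aen (-1.05), Gadd45a (-0.95), Ccng1 (-0.86) and Mdm2 (-0.63). It was positive for Fas (2.04), a death receptor that lymphocytes also carry and whose own change in p66Low selection did not pass.

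Interferon-induced and antigen presentation genes had positive differences: Gbp4 (4.45), Gbp6 (3.96), Tgtp2 (3.95), F830016B08Rik (3.94), Gm4951 (3.79), Irgm1 (2.77), B2m (3.72), H2-M3 (3.59), Tap2 (2.21), Ciita (3.29), Trim30a (3.32), Irf1 (2.22), Cd274 (2.87) and Birc3 (1.83). The p66High groups differed in the other direction or less in these genes, with the lowest GBP and IRG sum of all 12 tumours in p66High aggressive tumour 3.

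Immune cell genes had positive differences: Ncr1 (5.25), Gzma (4.80), Cd8a (6.13), Icos (7.78), Itgae (3.90), Itgax (1.60), C1qc (1.16) and C1qb (1.11). So had the lymph node-linked genes Iglc2 (18.78), Ccl21a (16.37), Ighg1 (15.41), Ighg3 (14.39), Ighv8-5 (13.80), Ighg2c (12.54) and Igkv1-117 (11.61). Some groups held no count of these, so that such fitted values depend on the prior count and are no bound. Lymph node genes were high in p66Low aggressive tumours 1 and 2 and in p66High parental tumour 3.

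Factors, secreted and surface proteins with positive differences were Sox2 (9.39), Sox11 (7.01), Sftpd (7.80), Vmn2r96 (7.02), Dcaf12l2 (6.80), Mup5 (5.99), Angptl1 (4.77), Pigr (4.36), Ly6i (4.31), Cldn4 (3.22), Ankrd1 (2.98), Col7a1 (2.48), Tgfbi (1.78), Pfkfb4 (1.62) and Zeb2 (1.55). Those with negative differences were Gipr (-6.85), Gabrr1 (-6.59), Sox14 (-6.02), Dpysl5 (-5.97), Col10a1 (-5.10), Tmem35 (-4.92), Rbp7 (-4.29), Dppa1 (-3.71), Hoxa10 (-3.57), Scml2 (-3.04), Dusp4 (-1.66), Col27a1 (-1.59), Slc7a5 (-1.22) and Lrig1 (-0.87).

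On chromosome 15 the difference was negative for Lrp12 (-1.95), Prr5 (-1.60), Cbx6 (-1.59), Pmm1 (-1.55), Gpt (-1.49), Rpl3 (-0.89) and Fam173b (-0.51).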

How the results depend on the processing

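The number of genes past the threshold (3221, of which 2929 were not lymph node-linked, and 2395 for the interaction) stayed within 1.5 times under DESeq2 (4234, 3875 and 3508), limma-voom, DESeq2 size factors, library size scaling and both other count filters. Fitting only the 6 p66Low tumours gave 2128 and 1904. Tumour 3 alone gave 831, 807 and 569, leaving out all 3 lymph node-rich libraries 705, 656 and 335, and the lymph node level as covariate 1339, 1232 and 480. A minimum log2 change of 1 gave 1723 and 1431. Without 1 p66Low tumour the counts ranged from 1545 to 3505, from 1395 to 3094 and from 1179 to 3278. The counts of genes not lymph node-linked were 1879, 1427 and 1395 without parental tumour 1, parental tumour 3 and aggressive tumour 2. Where fewer tumours are fitted, fewer degrees of freedom remain; other causes were not tested. Of 102 single genes past the threshold, 89 remained so with the covariate, 93 under limma-voom and 93 to 100 without 1 tumour. None changed sign, in tumour 3 alone and without the 3 libraries included. The genes with the greatest rises and falls were chosen for passing without each tumour and in tumour 3 alone, and many others for a small p. These counts and signs are therefore partly fixed by the choice.

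Sign changes were limited to genes that did not pass and to list medians. In tumour 3 alone and without the 3 libraries, Erbb2 was at 0.12, Fas at -0.061, Atm at -0.12, Lrdd at -0.12 and 9630033F20Rik at -0.13, and Sesn1 at -0.0091 and -0.0089. With the covariate, Erbb2 was at 0.075, Atm at -0.14, Lrdd at -0.24, 9630033F20Rik at -0.15 and Chek2 at 0.0025. Library size scaling gave 0.016 for Atr, 0.039 for Chek2 and 0.079 for Mdm4, limma-voom -0.0084 for Epcam, and no count filter -0.00014 for Xpc. Without 1 tumour, values ranged from -0.036 to 0.097 for Shc1, -0.32 to 0.12 for Erbb2, -0.092 to 0.33 for 9630033F20Rik, -0.077 to 0.13 for Atm, -0.34 to 0.036 for Chek1, -0.11 to 0.015 for Chek2, -0.20 to 0.13 for Epcam, -0.016 to 0.35 for Lrdd, -0.12 to 0.11 for Mdm4 and -0.021 to 0.045 for Xpc. Many list medians had the opposite sign in tumour 3 alone and without the 3 libraries, among them -0.61 for acute phase proteins, -1.17 for adipocytes, -0.55 for fibroblasts, -1.02 and -1.01 for lymphatic endothelium, and -0.97 and -0.96 for mast cells. Medians nearer to 0 also changed sign there, for example to -0.40 for collagens, -0.48 for endothelial and -0.54 for pericyte markers, -0.49 for luminal and 0.26 for glycolysis genes. With the covariate they included -0.12 for adipocytes, -0.79 for lymphatic endothelium and -0.020 for mast cells. The causes of these sign changes were not tested.

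No paired analysis was possible because the tumour numbers in the titles are not shared between the groups compared. A gene that did not pass is not shown to be equal in both groups.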
